A study of Mus musculus with 12 samples.

Results

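The regions described here were the m6A peaks of mouse dendritic cells (DC) that held GGACT, the DNA form of the m6A consensus GGACU, at 2 or more listed positions. They were taken as every peak whose motif entry in the deposited peak lists had 2 or more positions, and they numbered 2527 of 40978 peaks in all. The immature DC list (imDC) had 666 of them among 10517 peaks (6.33%), the mature DC list (maDC) 1197 among 17316 (6.91%) and the regulatory DC list (DCreg) 664 among 13145 (5.05%). They lay on 1323 different transcripts, and exactly 2 motifs were the rule, with 569, 993 and 565 peaks. They were set against 10188 peaks with 1 listed GGACT and 28263 peaks with none. The assay was meRIP-seq, an anti-m6A immunoprecipitation (IP) of fragmented mRNA sequenced beside its input, with 2 replicates for each of 3 DC types and 12 libraries in all. The imDC were CD11c+ cells grown from the bone marrow of C57BL/6 mice aged 6 weeks, with GM-CSF (10 ng/ml) and IL-4 (1 ng/ml). For maDC these cells received LPS (100 ng/ml), a Toll-like receptor 4 ligand, over 24 h. The DCreg arose from maDC kept on spleen endothelial cells for 7 days. Marrow of many mice was pooled for the cultures, so a replicate is a culture and not an animal.

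The value of a peak was the log2 of IP over input in each replicate, already scaled within the transcript, and the lowest listed value was 1. Each list was called by the authors on both replicates together, so the number of peaks in a list had no replicate error, and the intervals given for shares (95%, exact binomial) cover the counting of peaks only. The labels give TruSeq as the library kit for the first replicate of both imDC and maDC, and NEBNext Ultra for the other 4, and sequencing depth is unknown here because the lists hold no read counts. Among marker genes chosen for these cells, a peak of any kind was listed for 8, 9 and 5 of 10 DC markers in the imDC, maDC and DCreg lists, for 3, 6 and 7 of 8 macrophage markers, and for 1, 4 and 4 of 10 endothelial and stromal markers. Neutrophil markers had 3, 2 and 2 of 6, and lymphocyte markers 0 of 6 in every list. The part of other cells in the results below was not tested. A transcript without a peak may be unmethylated or too rare to be measured, and these cannot be told apart in the lists.

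As background, m6A is laid on nascent mRNA by a methyltransferase complex whose catalytic subunit is Mettl3, at an adenosine within a short consensus of which GGACU is the best known form. Many such sites are passed over, and marked sites gather in long internal exons and around the stop codon. YTH-domain proteins bind the modified base and act on splicing, translation and decay of the transcript. The antibody recovers a fragment of RNA and not a base, so a peak with several GGACU sites does not say which of its adenosines was modified.

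Close motif pairs are shown first, since they put 2 candidate adenosines within a short stretch of 1 peak. Sequences are from RefSeq transcripts on GRCm38, the assembly of mm10, 5′ to 3′ on the RNA strand, with T for U and each GGACT in capitals. The pairs below lie in members with high enrichment or in genes of DC function.
Morf4l2 (CDS, chrX:136734059-136734077, minus strand): tggaGGACTgGGACTtggt
Mkrn1 (CDS, chr6:39399245-39399273, minus strand): GGACTtgtttcacgatgagctggaGGACT
Kdm4b (3′UTR, chr17:56402480-56402497, plus strand): caaaGGACTGGACTgagg
Sec63 (3′UTR, chr10:42831761-42831784, plus strand): ttaaGGACTtaacttGGACTttta
Spop (3′UTR, chr11:95492004-95492033, plus strand): gGGACTgggggagggaagggcccaGGACTc
Tbc1d4 (5′UTR, chr14:101608954-101608980, minus strand): cattGGACTagttctccaGGACTgagc
Il12b (CDS, chr11:44407820-44407837, plus strand): aggtGGACTGGACTcccg
Socs5 (CDS, chr17:87134847-87134874, plus strand): tcagGGACTctgcacaggaGGACTacct
Kmt2b (CDS, chr7:30575311-30575339, minus strand): caGGACTaagtgctgctgacctGGACTtt

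Kdm4b and Il12b held the tightest arrangement found, with both GGACT end to end and their A bases 5 nt apart, and Morf4l2 had 1 base between them. Kdm4b codes for a histone H3 lysine 9 demethylase and Il12b for the p40 chain of IL-12. The next windows each hold 3 motifs, from Zfp971, a zinc finger gene, and Spen, which codes for a transcriptional corepressor.
Zfp971 (3′UTR, chr2:178035422-178035451, plus strand): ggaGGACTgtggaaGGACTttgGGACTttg
Spen (3′UTR, chr4:141468484-141468512, minus strand): gtGGACTctcgtgcaGGACTtgGGACTcg

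Son gave the highest motif number in every list. It codes for a nuclear speckle protein that acts in splicing, and the peak lies in a coding stretch of tandem repeats. The windows hold the first, the middle and the last of its 9 GGACT in maDC, and the letters from GGACT to the end of the window were the same in all 3.
Son (CDS, chr16:91656596-91656616, plus strand): aataccatGGACTcccagatg
Son (CDS, chr16:91656716-91656736, plus strand): agctctatGGACTcccagatg
Son (CDS, chr16:91656836-91656856, plus strand): agctccatGGACTcccagatg

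Neighbouring A bases of the Son motifs all stood 30 nt apart. The peak held 8, 9 and 8 of them in the imDC, maDC and DCreg lists. Its log2 enrichment was 1.90 and 2.39 in the replicates of imDC, 2.20 and 2.87 in those of maDC, and 2.76 and 1.95 in those of DCreg. These ranges overlapped. The peak with most motifs lay within 0.5 of the members' median, given below, in each replicate and was not among the most enriched. Znhit6, which acts in snoRNP assembly, had 5, 5 and 6 motifs in the 3 lists, and Scaf8, which codes for an RNA polymerase II-binding SR-related factor, had 5 in each. Rxra, which codes for the retinoid X receptor alpha, held 5 in a 3′UTR peak of DCreg at 3.40 and 2.81.

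Taken over all parts of the transcript and all lengths, peaks with more motifs had the higher median enrichment in every replicate. The median log2 enrichment of peaks with 2 or more motifs, with 1 and with none was 1.999, 1.880 and 1.832 in imDC replicate 1 and 2.44, 2.13 and 1.96 in imDC replicate 2. In maDC it was 2.213, 2.004 and 1.863 in replicate 1 and 2.42, 2.19 and 2.03 in replicate 2. In DCreg it was 2.71, 2.38 and 2.16 in replicate 1, but 2.06, 1.98 and 1.97 in replicate 2. The order of the 3 classes was the same in 6 of 6 replicates, and the step was smallest in DCreg replicate 2. Single members varied between replicates, with a median absolute difference of 0.63, 0.47 and 0.73 in the imDC, maDC and DCreg lists. Their Pearson correlations between replicates were 0.46, 0.70 and 0.56.

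The gap between peaks with 2 or more motifs and peaks with 1 was 0.21 ± 0.10 on the log2 scale (mean ± SD, n = 6 replicates), from 0.08 to 0.33 (exact permutation test by sign changes, two-sided p = 0.03125, the smallest that 6 replicates allow). Against peaks with no motif it was 0.34 ± 0.18, from 0.10 to 0.55, above 0 in 6 of 6 replicates (same exact test, p = 0.03125). Both p-values were 0.03125 after Benjamini-Hochberg adjustment over the 2 gaps. The replicates of a type share 1 peak list with the same motif classes, and many peaks recur between lists. The 6 gaps are thus not fully independent, which the test does not take into account. The classes overlapped widely: 53.6% to 70.2% of the peaks with 2 or more motifs were above the median of the peaks with none in their replicate. With only peaks of log2 1.5 or more in both replicates, the gap to peaks with 1 motif was 0.14 and above 0 in 5 of 6 replicates (exact permutation test, p = 0.0625). Within transcripts that had both kinds of peak, the median difference against peaks with no motif was 0.14 and 0.53 in the replicates of imDC, 0.42 and 0.40 in those of maDC, and 0.51 and 0.00022 in those of DCreg. All 6 were above 0, but that of DCreg replicate 2 only just. Against peaks with 1 motif on the same transcript the differences were 0.03 and 0.23, 0.20 and 0.26, and 0.30 and 0.15.

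**Figure D1:**
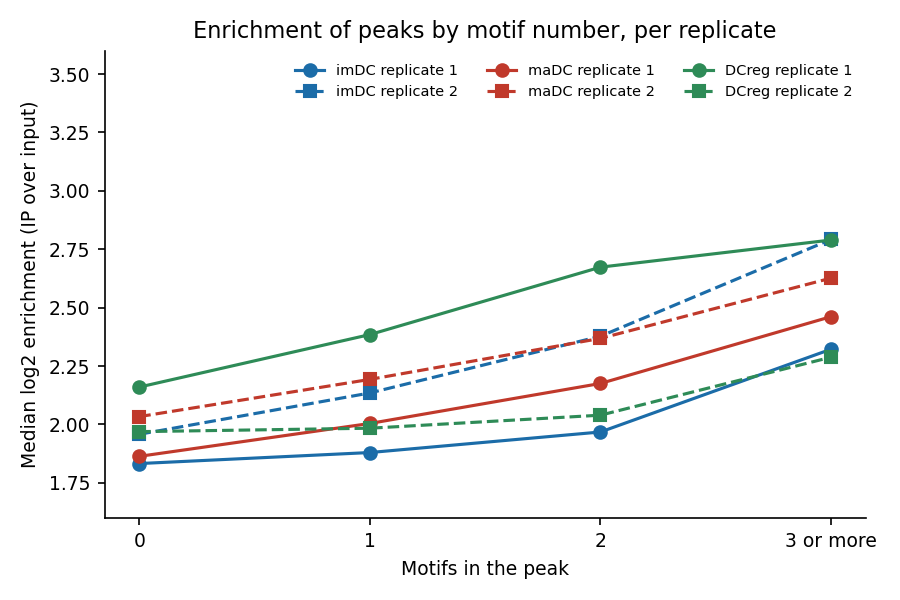
Median log2 enrichment (IP over input) of peaks with 0, 1, 2 and 3 or more listed motifs, with a line for each of the 6 replicates (circles and solid lines, replicate 1; squares and dashed lines, replicate 2). All 6 lines were highest at 3 or more motifs, from 2.29 in DCreg replicate 2 to 2.79 in imDC replicate 2 and DCreg replicate 1.

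With 3 or more motifs the median was higher again. Peaks with exactly 2 had medians of 1.97 and 2.38 in the replicates of imDC, 2.18 and 2.37 in those of maDC, and 2.67 and 2.04 in those of DCreg. Those with 3 or more, which numbered 97, 204 and 99, had 2.32 and 2.79, 2.46 and 2.63, and 2.79 and 2.29. All 6 medians were above those of the same replicate at 2 motifs. The few peaks with 4 or more (20, 28 and 14) did not continue this in every replicate, with 2.57 and 2.55, 2.37 and 2.84, and 2.62 and 2.51, and DCreg replicate 1 was then below its median at 2 motifs. Spacing went with smaller differences among peaks with exactly 2. Where the motifs lay within 25 nt the medians were 2.09 and 2.47 for imDC, 2.27 and 2.42 for maDC and 2.76 and 2.14 for DCreg, against 1.89 and 2.29, 2.10 and 2.34, and 2.70 and 2.01 where they lay 76 nt or more apart. The closer pairs were higher in 6 of 6 replicates, while in both DCreg replicates the pairs at 26 to 75 nt were lowest (2.60 and 1.92). No test was run on spacing.

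Longer peaks have more room for motifs, and the members were longer. Their median length was 203.5, 210 and 188.5 nt in the imDC, maDC and DCreg lists, against 174, 179 and 164 nt for peaks with none. Peaks with 2 or more motifs made up 1.46% to 1.78% of peaks of 100 to under 150 nt over the 3 lists, 4.17% to 5.38% of those of 150 to under 200 nt, and 11.3% to 13.4% of those of 250 nt or more. Among peaks of 150 to under 200 nt alone, the enrichment gap against no motif was 0.07 and 0.66 in the replicates of imDC, 0.45 and 0.36 in those of maDC and 0.51 and 0.02 in those of DCreg, above 0 in 6 of 6. The gaps were also above 0 in each replicate at 200 to under 250 nt and at 250 nt or more. At 100 to under 150 nt, where members numbered 20, 29 and 20, imDC replicate 1 went the other way, with -0.13 against no motif and -0.12 against 1.

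The transcripts themselves were then cut end to end into windows of 175 nt, the median peak length to the nearest 25 nt. It was counted how often a window with a given number of motifs held a peak centre. A window only reached by a peak centred in another window was not counted. Only transcripts with motifs at their listed places in the reference were used. Over the transcripts of all 3 lists together, 1.67% of 167372 windows held 2 or more GGACT, against 4.61%, 4.94% and 3.99% of the peaks of 150 to under 200 nt in the imDC, maDC and DCreg lists. For the shares by list, the windows were those of transcripts with a peak in that list. In maDC a peak centre fell in 8.82% of windows with no GGACT (8.66 to 8.98), 15.2% with 1 (14.8 to 15.7), 25.5% with 2 (23.7 to 27.3) and 38.8% with 3 or more (32.1 to 45.9). For imDC the shares were 7.12%, 11.3%, 19.4% and 25.8%, and for DCreg 8.03%, 11.97%, 19.8% and 25.9%. Each step was larger than the counting intervals except the last step in imDC and DCreg, where windows with 3 or more numbered only 159 and 170. Most windows with several motifs still held no peak centre.

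The shares ran over a wider range in the 3′UTR than in the coding sequence (CDS). In 3′UTR windows of maDC the share went from 6.93% with no motif to 15.7%, 32.7% and 48.6%, and in CDS windows from 8.98% to 13.98%, 20.6% and 33.9%. imDC had 4.58%, 10.1%, 22.0% and 25.9% in the 3′UTR against 7.01%, 10.5%, 16.1% and 25.6% in the CDS. For DCreg the shares were 6.25%, 11.96%, 23.0% and 29.5% in the 3′UTR, and 9.18%, 12.1%, 18.7% and 22.5% in the CDS. Without a motif, 3′UTR windows held a peak centre less often than CDS windows in each list, and with 2 motifs more often, which was not put to a test.

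**Figure D2:**
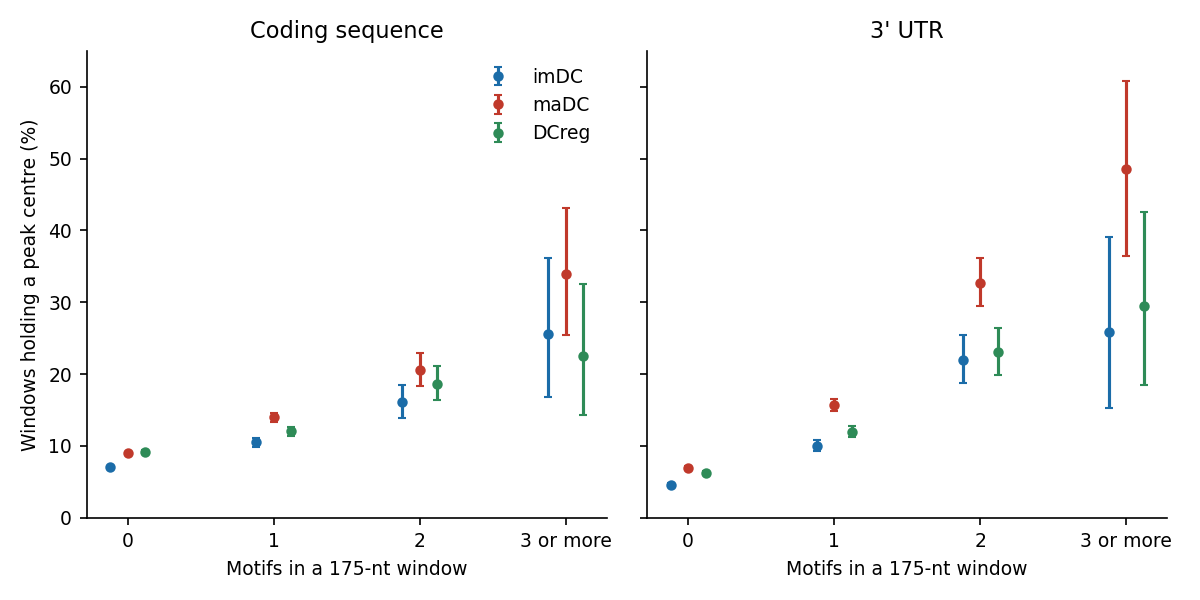
Percent of 175-nt windows that held a peak centre, by the number of motifs in the window, in the coding sequence (left) and the 3′UTR (right), with exact 95% intervals for counting error. With 2 motifs in the 3′UTR, 32.7% of the maDC windows held a peak centre, against 22.0% for imDC and 23.0% for DCreg.

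Counted by single motifs, the share inside a peak also rose with the number of neighbours. Of GGACT sites with no other GGACT within 100 nt, 12.9% lay in a peak of the imDC list, 17.98% in one of the maDC list and 12.9% in one of the DCreg list. With 1 neighbour these were 20.4%, 28.4% and 19.8%, and with 2 or more 33.1%, 44.6% and 32.9%. A peak that takes in 1 motif of a close pair mostly takes in the other as well, so these counts are not independent. Inside the peaks, the motif nearest the peak centre was 23 to 24.5 nt away in the median for members and 39.5 to 41.5 nt for peaks with 1 motif. A nearer closest motif also follows from having more than 1.

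Members were most frequent among peaks at the stop codon. Of stop codon peaks, 11.5% held 2 or more motifs in the imDC list (9.81 to 13.3), 10.3% in the maDC list (9.11 to 11.5) and 7.65% in the DCreg list (6.37 to 9.09). The 3′UTR followed with 7.39%, 7.88% and 5.54%, then the CDS with 5.95%, 6.16% and 4.34%. The stop codon interval was clear of both others in every list, and that of the 3′UTR was clear of the CDS for maDC only. The members' median enrichment was above that of peaks with no motif in every replicate for the 5′UTR, the start codon, the CDS and the 3′UTR. At the stop codon it was so in all but imDC replicate 1, with 1.82 against 1.85, and among the few noncoding members (6, 7 and 5) it was lower in imDC replicate 1 and DCreg replicate 2. Stop codon peaks were also a little longer, with medians of 190, 194 and 174 nt against 185, 189 and 171 nt in the CDS. Peaks at the start codon had 3.44%, 4.77% and 4.34%, and peaks in the 5′UTR 3.85%, 4.39% and 4.21%, with intervals that overlapped. In 49, 91 and 42 members of the 3 lists the motifs stood on both sides, in the CDS and in the 3′UTR. Mkrn1, printed above, is a stop codon peak with both motifs on the coding side.

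**Figure D3:**
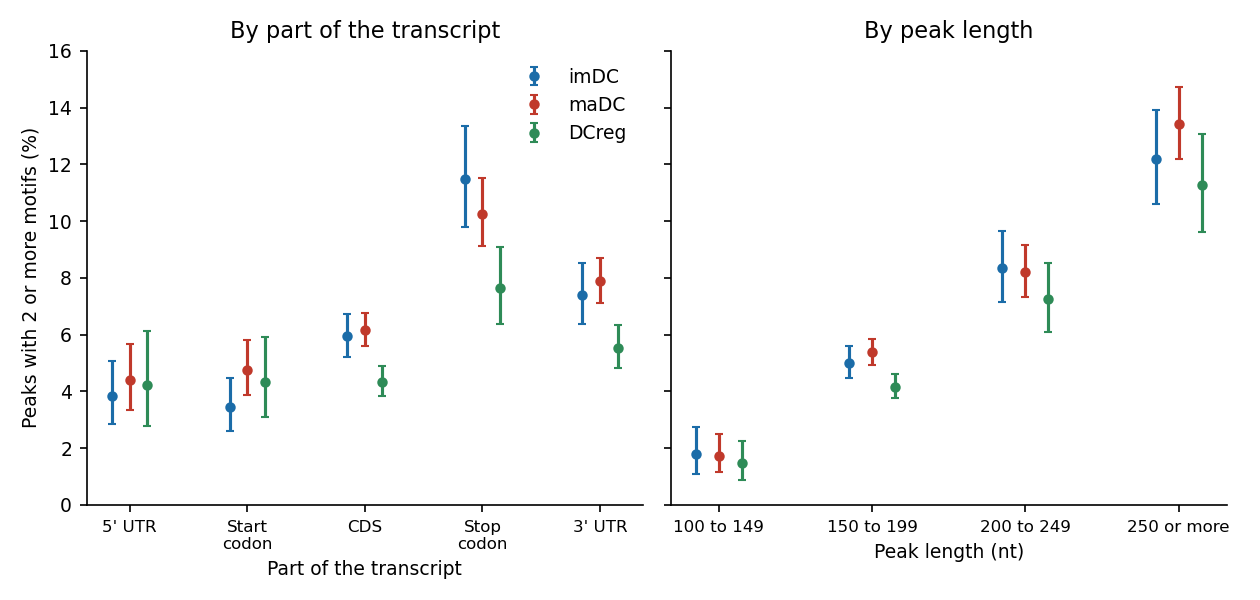
Percent of peaks with 2 or more motifs by the part of the transcript (left) and by peak length (right) in the 3 lists, with exact 95% intervals. Stop codon peaks had the highest share in each list (11.5%, 10.3% and 7.65%), and the share rose with length to 12.2%, 13.4% and 11.3% at 250 nt or more.

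Neighbouring motifs of the same peak made 1716 distinct pairs over the 3 lists. The median distance between their A bases was 60 nt (interquartile range 27 to 103), 401 pairs (23.4%) lay within 25 nt, and 22 were end to end at 5 nt. The commonest distance was 18 nt, with 32 pairs. By list it was 30 nt for imDC (18 pairs), 18 nt for maDC (31 pairs) and 5 nt for DCreg (16 pairs), with Son giving several of the first. The pairs at 18 nt with the highest enrichment are shown here.
Wdr91 (CDS, chr6:34880872-34880900, minus strand): cgtGGACTggagcaccgccatGGACTgtg
Clec4e (CDS, chr6:123283629-123283657, minus strand): ggaGGACTgtgccaccataagGGACTctt
Exoc8 (CDS, chr8:124896576-124896604, minus strand): gagGGACTttgagggtgccgtGGACTtgc
Pan2 (CDS, chr10:128310388-128310416, plus strand): tgtGGACTccttgccgcctctGGACTgga
St3gal2 (5′UTR, chr8:110957388-110957416, plus strand): aagGGACTagagggctgagatGGACTgac

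Clec4e codes for Mincle, a C-type lectin receptor of myeloid cells, and its 18-nt pair was in a maDC peak at 3.88 and 4.13. Pan2 codes for the catalytic subunit of a deadenylase, and its maDC peak had 3.78 and 4.63. Wdr91, which codes for a regulator of endosome maturation, had 4.33 and 4.39 in DCreg, Exoc8, a subunit of the exocyst, 3.539 and 3.498 in maDC, and St3gal2, a sialyltransferase, 3.38 and 4.02 in maDC. Where both motifs were in the CDS, 367 of 783 distances (46.9%, 43.3 to 50.4) were multiples of 3, against 214 of 665 (32.2%, 28.6 to 35.9) in the 3′UTR. The intervals of the 2 parts did not overlap. In the CDS the A of GGACT was the second base of a GAC codon, which codes for aspartate, at 55.9% of the sites in members, 56.1% of the sites in peaks with 1 motif and 54.0% of the sites in no peak. From those frame shares alone, 41.0% of pairs would have equal frames.

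**Figure D4:**
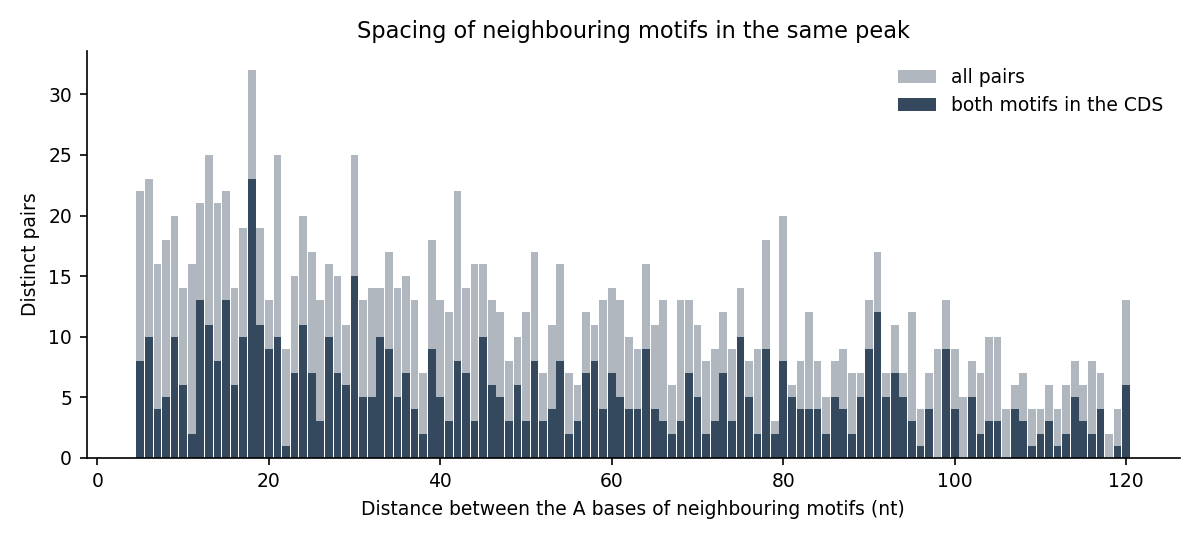
Number of distinct neighbouring motif pairs at each distance from 5 to 120 nt between their A bases, over the 3 lists (grey, all pairs; dark, both motifs in the CDS). The tallest bar was at 18 nt with 32 pairs, and 22 pairs stood end to end at 5 nt.

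Base composition differed little. On reference-checked transcripts, the members' median GC content was 56.96%, 55.3% and 54.1% in the imDC, maDC and DCreg lists, against 57.5%, 54.01% and 51.5% in peaks with no motif, so the direction was not the same in all lists. Their transcripts had median lengths of 3757, 3859 and 3855.5 nt, against 3916, 4089 and 4117.5 nt.

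Members were shared between DC types more often than other peaks. A peak overlapping by at least 50% of the shorter one was present in both other lists for 67.6% of the imDC members (63.9 to 71.1), 41.4% of the maDC members (38.5 to 44.2) and 62.2% of the DCreg members (58.4 to 65.9). For peaks with 1 motif these were 59.0%, 34.4% and 50.7%, and for peaks with none 49.9%, 30.7% and 40.5%. Among peaks of 150 to under 200 nt the order was the same, with 66.4%, 37.8% and 58.0% for members and 52.6%, 31.4% and 41.1% for no motif. In each list the members' interval then overlapped that of peaks with 1 motif: 60.7 to 71.8 against 57.8 to 62.9 for imDC, 33.5 to 42.3 against 31.4 to 35.3 for maDC, and 52.7 to 63.2 against 48.6 to 53.2 for DCreg. In all, 321 sites on 317 transcripts held 2 or more motifs in all 3 lists. Of the transcripts with such a peak in any list, 336 had one in all 3, while 411 had one in the maDC list alone, 58 in the imDC list alone and 109 in the DCreg list alone. The maDC list was also the longest, so these counts are no measure of a difference between types.

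The strongest of the sites present in all 3 lists were on Mkrn1, Bhlhe40, Pik3r1, Morf4l2, Ncstn and Ltbr. Mkrn1 codes for an E3 ubiquitin ligase, and its stop codon peak had 5.82 and 4.49 in the replicates of imDC, 4.34 and 5.35 in those of maDC, and 4.88 and 5.06 in those of DCreg. Bhlhe40, a basic helix-loop-helix repressor, had 5.70 and 4.58, 4.37 and 4.61, and 4.08 and 4.78 at a CDS peak. Pik3r1, the p85 regulatory subunit of PI3-kinase, had 5.68 and 4.35, 3.94 and 4.47, and 5.01 and 5.80 in the 3′UTR. In these 3 genes imDC replicate 1 was above replicate 2 by more than 1, and the types overlapped except that DCreg lay above maDC at Pik3r1. Morf4l2, a chromatin protein of the MRG family, had 4.95 and 3.81, 4.02 and 5.25, and 5.16 and 6.31, so that DCreg lay above imDC and overlapped maDC. Ncstn, the nicastrin subunit of gamma-secretase, had 4.42 and 4.30, 4.64 and 5.21, and 4.40 and 3.79, with both maDC values above all others. Ltbr, the lymphotoxin beta receptor of the noncanonical NF-κB pathway, had 5.00 and 3.73, 3.98 and 5.10, and 4.71 and 6.09, with overlap between all 3 types. Over all shared sites DCreg lay above maDC in both replicates at 21.5% and above imDC at 30.2%. By the same count maDC lay above imDC at 23.6% and above DCreg at 14.6%.

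**Figure D5:**
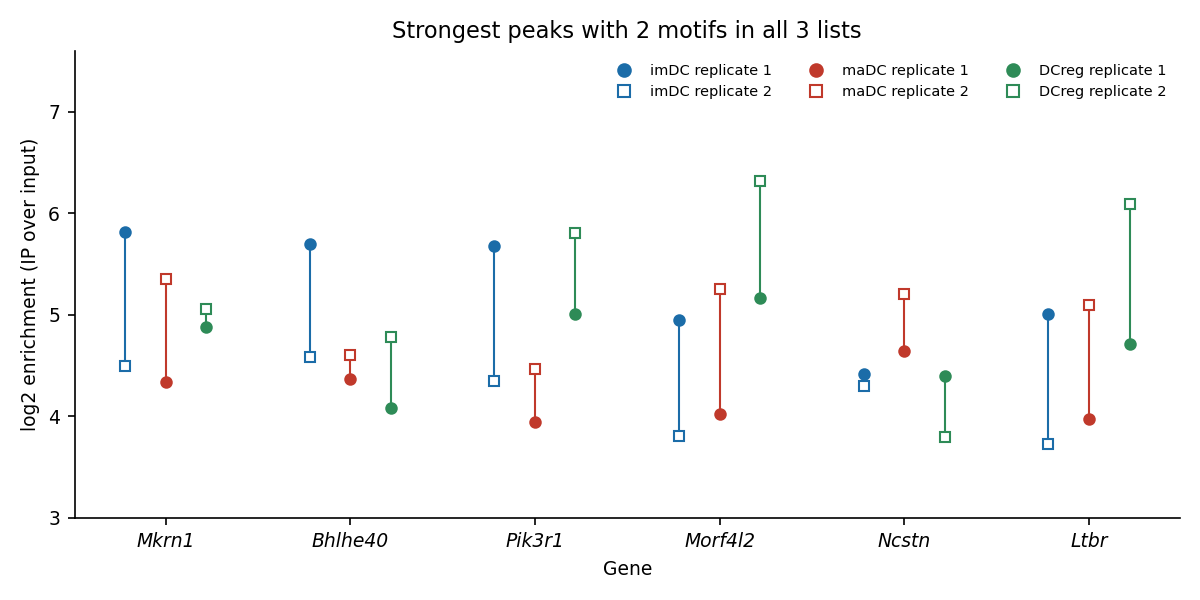
log2 enrichment (IP over input) in each replicate at the 6 sites with 2 or more motifs in all 3 lists that had the highest lowest value (filled circles, replicate 1; open squares, replicate 2; a line joins the replicates of a type). At Morf4l2 and Pik3r1 the DCreg replicates reached 6.31 and 5.80, and at Mkrn1, Bhlhe40 and Ltbr all 3 types overlapped.

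Whether the enrichment of members differed between types was asked at shared sites with 2 or more motifs in both lists, using limma on all shared sites with 2 replicates per type and Benjamini-Hochberg adjustment over all of them. Between maDC and imDC there were 555 such sites, and none passed an adjusted p of 0.05, as none did among all 8300 shared sites (0%). The medians over the 555 sites were 2.54 and 2.77 in maDC and 2.06 and 2.57 in imDC, so imDC replicate 2 lay between the maDC replicates. At an unadjusted p under 0.05 there were 12 members (2.16%), against 3.54% of all shared sites. Both maDC replicates lay above both imDC replicates at 155 members (27.9%, against 23.6% of all shared sites) and below at 27 (4.86%, against 7.47%). The median difference over the members was 0.36, and 76.8% of them were higher in maDC by their means, against 0.21 and 65.8% over all shared sites and 0.16 and 62.9% over sites with no motif. The medians over all shared sites were 2.21 and 2.45 in maDC and 1.95 and 2.18 in imDC.

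The members with the smallest p were Lrp1, an endocytic receptor, Pwp2, a ribosome biogenesis factor, Rnf8, a ubiquitin ligase of the DNA damage response, and Ahctf1, a nucleoporin. Lrp1 had 1.98 and 2.37 in maDC and 1.00 (the lowest value a listed peak can have) and 1.18 in imDC (difference 1.09, SE 0.42, limma adjusted p = 0.98). Pwp2 had 3.82 and 4.58 in maDC and 1.44 and 3.28 in imDC, and Ahctf1 had 3.22 and 3.95 against 1.26 and 2.75. Rnf8 went the other way, with 1.02 and 1.04 in maDC and 2.09 and 1.46 in imDC. At all 4 the types did not overlap, which the choice by smallest p favors, and the limma adjusted p was 0.98 at each. Leaving out imDC replicate 2 leaves 1 imDC value, so only differences are given for that fit. At Wdfy4, a gene of antigen cross-presentation in DC, and Dgkz, a diacylglycerol kinase gene, maDC was then higher by 2.45 to 2.98. Pwp2, Jak1 and the autophagy genes Wdfy3 and Wipi2 lay in the same range. These members were picked by that fit, and the share it would pick among all shared sites was not counted. At these sites imDC replicate 1 was at 1.02 to 1.44 and imDC replicate 2 at 3.28 to 4.56. Each of these differences thus compared maDC with the TruSeq replicate alone.

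Between DCreg and maDC, 491 sites held 2 or more motifs in both lists. None of them was past an adjusted p of 0.05, while 22 of all 8468 shared sites were (0.26%), all higher in DCreg and with no motif in either list. The medians over the 491 sites were 2.82 and 2.17 in DCreg and 2.61 and 2.83 in maDC, so DCreg replicate 1 lay between the maDC replicates and DCreg replicate 2 below both. Over all shared sites they were 2.52 and 2.10 in DCreg and 2.16 and 2.43 in maDC. At an unadjusted p under 0.05 there were 21 members (4.28%, against 7.13% of all shared sites). DCreg lay above maDC in both replicates at 73 members (14.9%, against 21.5%) and below at 91 (18.5%, against 14.6%). The members' median difference was -0.12 and 40.5% were higher in DCreg by their means, against 0.03 and 52.1% over all shared sites. Sec63, which acts in protein translocation into the endoplasmic reticulum, had 4.84 and 5.47 in DCreg and 2.97 and 2.40 in maDC (difference 2.47, SE 0.73, limma adjusted p = 0.15). The close pair of Sec63 in its 3′UTR is printed above. Adcy6, an adenylate cyclase, had 2.65 and 2.46 in DCreg against 4.65 and 4.37 in maDC (limma adjusted p = 0.46), with 2 motifs in the DCreg peak and 3 in that of maDC. Alkbh1, a demethylase of the AlkB family, had 2.18 and 1.17 against 3.52 and 3.40, and Eif2ak1, the heme-regulated eIF2α kinase, 1.94 and 1.15 against 3.21 and 3.36 (limma adjusted p = 0.51 for both). None of these 4 overlapped between the types, which their choice by smallest p favors. Without DCreg replicate 1, which leaves 1 DCreg value, the difference was 2.79 at Sec63 and 2.45 at a CDS site of Spen. Both were picked by that fit, and the share it would pick among all shared sites was not counted.

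Between DCreg and imDC, 355 sites were compared and none passed limma's adjusted p of 0.05, as none of 6115 shared sites did (0%). The medians were 2.98 and 2.41 in DCreg and 2.20 and 2.70 in imDC. At an unadjusted p under 0.05 there were 10 members (2.82%, against 6.3%). DCreg lay above imDC in both replicates at 92 members (25.9%, against 30.2%) and below at 15 (4.23%, against 7.18%). The members' median difference was 0.25 and 67.9% were higher in DCreg by their means, against 0.31 and 69.0% over all shared sites. Adcy6 was the member with the smallest p here, at 2.65 and 2.46 in DCreg and 5.03 and 4.67 in imDC (difference -2.30, SE 0.79, limma adjusted p = 0.78). Slc40a1, which codes for the iron exporter ferroportin, had 4.02 and 5.57 against 2.15 and 2.73, and Ssh2, a cofilin phosphatase, 2.70 and 4.48 against 1.86 and 1.15. Sec63 had 4.84 and 5.47 against 3.80 and 1.70. The comparisons with DCreg share its samples, so Adcy6 and Sec63 in both are not 2 independent results.

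Of all genes with a peak, 10.6% had a member in the imDC list, 14.02% in the maDC list and 9.51% in the DCreg list, and the counts by pathway are given in that order and read against these shares. Most genes named by pathway were picked for a high lower replicate value in any list. That choice favors the type where the value is high, so the order of types at these genes is no test. Antigen presentation genes had a member in 7 of 14 genes with a peak, 7 of 17 and 3 of 10, at a median of 1 peak per gene in each list. They were Tap1 and Tap2, the peptide transporter of MHC class I loading, Nlrc5 and Ciita, the transactivators of MHC class I and class II genes, H2-Aa, H2-Eb2 and the protease gene Ctss. Tap2 held 3 motifs in a CDS peak at 2.62 and 2.49 for imDC, 2.69 and 2.83 for maDC, and 2.72 and 1.35 for DCreg. The 3′UTR peak of Nlrc5 had 1.19 and 2.21 in imDC and 2.44 and 2.85 in maDC, and Ciita had 1.86 and 2.02 against 2.21 and 2.60. H2-Eb2 had 1.03 and 2.99 in imDC and 2.10 and 2.86 in maDC. In Tap2, Nlrc5 and Ciita both maDC replicates lay above both of imDC, and in H2-Eb2 the types overlapped. The first 3 were picked by their maDC values, and 23.6% of all sites shared by maDC and imDC had that order.

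Cytokine and interferon receptor genes had a member in 4 of 15, 7 of 21 and 1 of 16 genes with a peak. Il4ra, the receptor chain for the IL-4 used in the culture, was the 1 in DCreg and held 3 separate members there, in the 5′UTR at 1.15 and 2.04, in the CDS at 2.61 and 2.55 and in the 3′UTR at 1.85 and 2.46. Its CDS peak was also in imDC at 2.67 and 3.43 and in maDC at 1.80 and 3.13, and it had a further member in the 5′UTR in imDC at 1.32 and 1.01 and in the 3′UTR in maDC at 1.08 and 1.25. The JAK, STAT and SOCS genes had a member in 3 of 14, 5 of 15 and 3 of 16. Jak1, a kinase of interferon and cytokine receptors, had 1.13 and 4.50 for imDC, 4.53 and 3.69 for maDC, and 3.98 and 2.04 for DCreg at its 3′UTR pair. Stat2, a transcription factor of the type I interferon response, had 1.54 and 4.21, 4.07 and 3.51, and 3.59 and 2.22 at a stop codon peak with 3 motifs. In both genes the replicates of imDC differed by more than 2, and the types overlapped. Socs5, a suppressor of cytokine signaling, was steadier, with 2.12 and 2.67, 2.31 and 2.32, and 3.14 and 1.87.

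Toll-like receptor signaling had a member in 1 of 17, 6 of 28 and 4 of 25 genes. The strongest was the 3′UTR peak of Irak2, a kinase downstream of MyD88, at 4.08 and 2.93 in maDC and 3.11 and 2.70 in DCreg, with overlap. Ticam1, the TRIF adaptor, had 1.12 and 1.06 in maDC and 1.48 and 2.63 in DCreg. The DCreg replicates were higher, as at 21.5% of all sites shared by these types. In the NF-κB pathway the counts were 2 of 18, 4 of 23 and 1 of 17. Tnfaip3, which codes for the ubiquitin editor A20, had 1.29 and 2.75 for imDC, 2.52 and 2.58 for maDC, and 1.89 and 1.03 for DCreg. There maDC overlapped imDC and lay above DCreg, as at 14.6% of all sites shared by maDC and DCreg. Map3k14, the kinase NIK, held 3 motifs, 15 and 21 nt apart, in a maDC peak at 2.14 and 2.25.

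Of the molecules at the cell surface, chemokines and their receptors had a member in 2 of 9, 3 of 15 and 2 of 10 genes. Ccr7, which guides mature DC to lymph nodes, had 2.66 and 2.57 in imDC and 2.37 and 3.18 in maDC. The maDC values lay on either side of those of imDC. Among co-stimulatory and co-inhibitory genes the counts were 1 of 12, 2 of 14 and 1 of 7. Icosl, the ligand of ICOS, had 2.48 and 3.46, 3.26 and 3.98, and 4.00 and 3.78 in its 3′UTR. Both DCreg replicates were above both imDC replicates there, as at 30.2% of all sites shared by these types, and DCreg overlapped maDC. The peaks of Cd40 and Cd80, by contrast, held at most 1 motif. The stop codon peak of Cd40 had 4.18 and 4.51 in imDC and 4.84 and 4.49 in maDC with 1 motif, which was above the median of the members.

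Cytokine genes had a member in 2 of 5, 3 of 12 and 1 of 3. Tgfb1, an immunosuppressive cytokine, had 3.63 and 2.08 for imDC, 2.53 and 2.60 for maDC, and 2.85 and 5.04 for DCreg in the 5′UTR. Its DCreg values lay above maDC, as at 21.5% of all sites shared by these types. The Il12b pair was at 1.61 and 2.02 in maDC, the only list that held it, and the peak of Il6 and the peaks of Tirap held at most 1 motif each. Interferon-stimulated genes had a member in 0 of 17, 2 of 23 and 0 of 8. They were Dhx58, the RNA sensor LGP2, at 2.29 and 2.20, and Oas3, a 2′-5′ oligoadenylate synthetase, at 1.32 and 1.86.

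Genes of histone lysine methyltransferases and demethylases had a member in 8 of 30, 16 of 32 and 7 of 27 genes with a peak. These genes also had more peaks of any kind, with a median of 3, 4.5 and 5 per gene against 1, 2 and 2 over all genes. Kdm4b, picked by its imDC value, had 4.32 and 4.50 for imDC, 4.13 and 4.14 for maDC, and 3.78 and 2.72 for DCreg. Both DCreg replicates lay below the others. Over all shared sites DCreg lay below maDC at 14.6% and below imDC at 7.18%. Kmt2b, an H3 lysine 4 methyltransferase, had 2.43 and 3.16 in imDC and 3.56 and 3.45 in maDC. Setdb1, an H3 lysine 9 methyltransferase, had 1.28 and 2.86, 3.44 and 3.13, and 3.38 and 1.51. In Kmt2b and Setdb1 maDC lay above imDC in both replicates, as at 23.6% of all sites shared by these types, and no site passed the limma test. Both genes were picked by their maDC values. Transcription factors of DC and their precursors had a member in 4 of 16, 5 of 18 and 4 of 15. Spi1, which codes for PU.1, had 2.71 and 3.66 in maDC and 2.96 and 1.43 in DCreg, and Batf 1.43 and 2.60, 3.25 and 2.77, and 2.49 and 2.44. Zinc finger genes, taken as all genes with a symbol starting with Zfp, had a member in 13 of 107, 16 of 187 and 8 of 138. Zfp971, printed above with 3 motifs, had 2.35 and 2.93, 3.74 and 3.59, and 4.12 and 3.19.

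The m6A machinery itself had a member in 1 of 11, 2 of 16 and 2 of 15 genes with a peak. Wtap, the adaptor of the methyltransferase complex, had 2.28 and 3.12 in maDC and 1.94 and 2.69 in DCreg in its 3′UTR. Rbm15b, which recruits the complex to RNA, had 1.99 and 2.28, 2.21 and 2.20, and 2.27 and 1.40 in its CDS. No marker gene of endothelial and stromal cells or of neutrophils had a member in any list.

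Other members had values as high in at least 1 list as the 6 shared sites above. Of those named next, Spop, Srprb and Gna12 also held 2 or more motifs in all 3 lists. Srprb, for one, had 4.12 and 4.51 in maDC. In imDC the pair of Tbc1d4, which codes for a Rab GTPase-activating protein of glucose transport, stood in a 5′UTR peak at 4.96 and 4.41. In maDC Rnf11, a RING finger adaptor of ubiquitin editing, had the highest lower value, with 5.29 and 5.55 in the CDS. Also high there were Spop, a cullin 3 adaptor, at 4.49 and 4.64, and Fbxl5, the iron-sensing F-box protein, at 4.40 and 4.98. DCreg had Srprb, a subunit of the signal recognition particle receptor, at 4.51 and 4.54, and Gna12, a G protein alpha subunit, at 4.44 and 4.82. Each of these replicate pairs differed by less than 0.6. Several transcripts held more than 1 member. Wipf2, which codes for a WASP-interacting protein, held 3 in maDC, at 2.93 and 4.58 in the 5′UTR and at 2.09 and 2.29 and 1.498 and 1.487 in the 3′UTR. Nsf, the ATPase of membrane fusion, held 2 in DCreg, at 4.28 and 4.19 around the stop codon and 3.67 and 2.01 in the 3′UTR. Slc7a5, a large neutral amino acid transporter, held 2 in the 3′UTR in DCreg, at 4.74 and 3.48 and at 3.56 and 1.79. In these 3 genes the members of 1 transcript were not equally enriched, and the highest one lay nearest the 5′ end. This did not hold for every such transcript. Spen in imDC had 1.08 and 1.39 in the CDS but 2.69 and 2.79 in the 3′UTR. For Il4ra in DCreg, given above, the 5′UTR member was the lowest.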

How the data were processed

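Per the labels and the study's methods, IP and input RNA of 3 DC types were sequenced in 12 libraries, with 2 replicates a type. The authors aligned reads with TopHat2 2.0.14 to mm10, extended them to 150 bp and scanned the longest isoform of each gene in windows of 100 bp at steps of 10 bp, leaving out windows under 1/20 of the highest one. Peaks were kept at an edgeR false discovery rate under 1% (version not given in the sources used here) with a log2 of at least 1 in both replicates. The deposited values are log2 enrichment of IP over input, scaled by the authors to the median window of the transcript, so they hold no counts and the depth is unknown. The replicate columns were taken to follow the labels' numbers, which could not be checked in the lists. The study's methods name NEBNext alone, while the labels name 2 kits. Of per-sample value columns, 0 were left unused.

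Members were peaks with 2 or more listed motifs. Motif places were checked against RefSeq transcripts on GRCm38.p6: 8185 of 9142 transcripts (89.5%) and 2103 of 2527 members (83.2%) matched at every listed position, and sequences, windows and composition used these alone. Ltbr, Il4ra, Stat2, Spi1 and Rbm15b were not among them. Gaps between class medians were tested over the 6 replicates by exact sign changes. Peaks of 2 lists were called shared where they were each other's best overlap, at 50% or more of the shorter. Shared sites were tested with limma 3.58.1 in R 4.3.3 on the deposited values, with 2 replicates a type, no block and Benjamini-Hochberg adjustment over all shared sites of a comparison. Since both groups had to pass the threshold, a site lost in 1 type was not tested. With replicates from cultures of pooled marrow, p-values measure the spread between these samples. Tables were made with Python 3.11.15, pandas 2.3.3 and SciPy 1.17.1, and the tests were tested on simulated data.

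Genes were named by rule: per list the peaks with most motifs, the highest lower replicate value and the most members per transcript, up to 3 genes per pathway list, the shared sites with the smallest p, the highest sites in all 3 lists, genes the study followed up and pairs at the commonest spacing. Genes without a proper symbol were skipped, and 38 members had no symbol in the lists. Some genes that the rule names are not reported here. H2-Eb2 is among the followed-up genes. The members and lists were chosen with earlier results of these data known. Alternatives were peak length, threshold, part, 1 peak per transcript, kit, overlap, filters, replicate block and leaving out each replicate.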

Additional observations from a re-analysis of the deposited data

How the results depend on the processing

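Both enrichment gaps kept their direction in all 30 alternatives run, with 15 on the same side of the threshold. Against 1 motif the gap was 0.14 with a log2 of at least 1.5 in both replicates (exact permutation test, p = 0.0625), and with the 4 NEBNext replicates alone the gaps were 0.23 and, against no motif, 0.38 (exact, p = 0.125, the smallest that 4 replicates allow). Leaving out each replicate gave 0.19 to 0.24 and 0.30 to 0.39, where 5 replicates allow no p below 0.0625. The share of peaks with 2 or more motifs in the imDC, maDC and DCreg lists was 7.51%, 8.39% and 5.67% at a log2 of at least 1.5, 6.99%, 9.22% and 5.89% for the highest peak of each transcript, and 5.00%, 5.38% and 4.17% at 150 to under 200 nt. The share of members found in both other lists was 28.4%, 17.3% and 27.9% with an overlap of 80% of the longer peak. For maDC and DCreg it was 37.8% and 58.0% at 150 to under 200 nt, and 35.1% and 56.9% at a log2 of at least 1.5. The cause of these shifts was not tested. Sharing of peaks with 1 or no motif was not counted at the 80% overlap or at a log2 of at least 1.5. Members cannot be compared with other peaks under those 2 settings. Calls among members by limma ranged from 0 to 6 between maDC and imDC and from 0 to 2 between DCreg and maDC when replicates were left out, a lone replicate being taken to vary like the other type, and stayed at 0 between DCreg and imDC. With a replicate left out, calls among all shared sites were not counted. Whether members were called more or less often than other sites in those fits thus cannot be told. A replicate block gave 0 calls among members in each comparison. Same-numbered replicates did not deviate together (correlations -0.12, -0.04 and -0.35), so the numbers were not taken as pairs. Crossed numbers, an alternative chosen after seeing the data and run between maDC and imDC and between DCreg and imDC, also gave 0 calls. At the named sites 82 of 84 alternatives stayed on the same side, and the others were Pwp2 (2.76 without imDC replicate 2) and Sec63 (2.79 without DCreg replicate 1). Unknown depth limits what can be said of peaks missing from a list.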
